A study of Homo sapiens with 6 samples.

Results

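The comparison described here is the one between 2 arrays of HCC95 cells that carried an LZTFL1 vector, 1 array labelled as treated with TGFβ and 1 untreated. They are 2 of the 6 arrays of the series, and both were chosen by their labels. HCC95 is an established human line from a squamous lung cancer. Both cultures had received pSIn-E2F-LZTFL1-ires-GFP-puro, a plasmid that carries LZTFL1 and GFP on a bicistronic transcript, and both were grown in DMEM with fetal bovine serum. The dose of TGFβ and the time for which it was given are not known here. The other HCC95 pair, used only for comparison, carried pSin-E2F-GFP-puro and had 1 untreated array and 1 labelled TGFβ; the remaining 2 arrays are of untreated H460 cells. Each group has 1 array, so no difference below has a replicate, an error or a p-value.

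TGFβ is a secreted cytokine that binds a pair of serine/threonine kinase receptors, which phosphorylate SMAD2 and SMAD3. These enter the nucleus with SMAD4 and act on matrix, cytoskeletal and cell cycle genes and on their own inhibitors. In epithelial cells TGFβ is best known for growth arrest and for the epithelial to mesenchymal transition. LZTFL1, a leucine zipper protein, regulates how the BBSome moves membrane proteins in and out of cilia.

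Values are normalized log2 intensities, and a difference is the TGFβ-labelled array minus the untreated array, so that 1 is a 2-fold difference. A probe was called detected at a detection p under 0.01. At least 1 of the 2 arrays detected 16862 of 47323 probes, and after 1 probe was taken for each gene, 10137 of 20046 named genes. Of these genes, 8861 were detected on both arrays, 1065 only on the untreated array and 211 only on the TGFβ-labelled one. The lowest detected level was 5.33 on the untreated array and 5.68 on the TGFβ-labelled one. A gene detected on 1 array has only a bound, measured to the lowest detected level of the other array and written as "at least". Just inside the threshold, 43 genes with a detection p of 0.00909 had their higher level between 5.33 and 5.69. Just outside it, 94 genes at 0.0104 had theirs between 5.33 and 5.68.

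The arrays of the series had median probe signals of 104 to 125 and 14136 to 16423 detected probes. The 2 LZTFL1 arrays had 16423 (untreated) and 14232 (TGFβ-labelled), and their levels correlated across probes with r = 0.985. LZTFL1 itself was read by 1 probe, at 5.07 on both, with detection p of 0.0623 and 0.074. It was therefore detected on neither LZTFL1-labelled HCC95 array. The same probe was detected on the untreated HCC95 array with the GFP vector, at 5.75 (detection p 0.0026), and read 5.40 (0.0299) on its TGFβ-labelled partner. The probe thus runs against the vector label in HCC95. Whether it reads the vector's transcript is not known. Of 8 squamous markers with a listed probe, all 8 were detected on both arrays. Among them, the basal keratin KRT5 stood at 12.98 and 13.01 and the lineage factor SOX2 at 10.93 and 10.55. None of the 6 markers of lung adenocarcinoma was detected.

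With the TGFβ label, 108 genes (1.07% of 10137) lay 2-fold or more above the untreated array and 57 (0.562%) lay 2-fold or more below it. When the arrays were only scaled to equal medians, the counts were 72 and 110, so that the share of higher genes went from 65.5% to 39.6%. A 4-fold difference was passed by 9 genes upward and 2 downward. The 9 were the cytokine and chemokine genes LTB, CCL20, IL1B, IL36G, GDF15 and IL1A, the calcium-binding S100P, MACROD1, which encodes a hydrolase that removes ADP-ribose (6.11 and 8.23), and PLEK, which encodes pleckstrin, a protein kinase C substrate of platelets and leukocytes. PLEK was detected only on the TGFβ-labelled array (7.41) and was at least 4.22-fold higher. The 2 lowest were PMEPA1 and CRYAB. These folds are of background-corrected levels, and the uncorrected signals differed by less. Untreated and TGFβ-labelled, those signals were 147 and 813 for LTB, 160 and 333 for S100P and 887 and 164 for PMEPA1. Over genes detected on both arrays the median difference was 0.02 and the SD 0.38, with 5% of genes below -0.57 and 5% above 0.65.

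**Figure D1:**
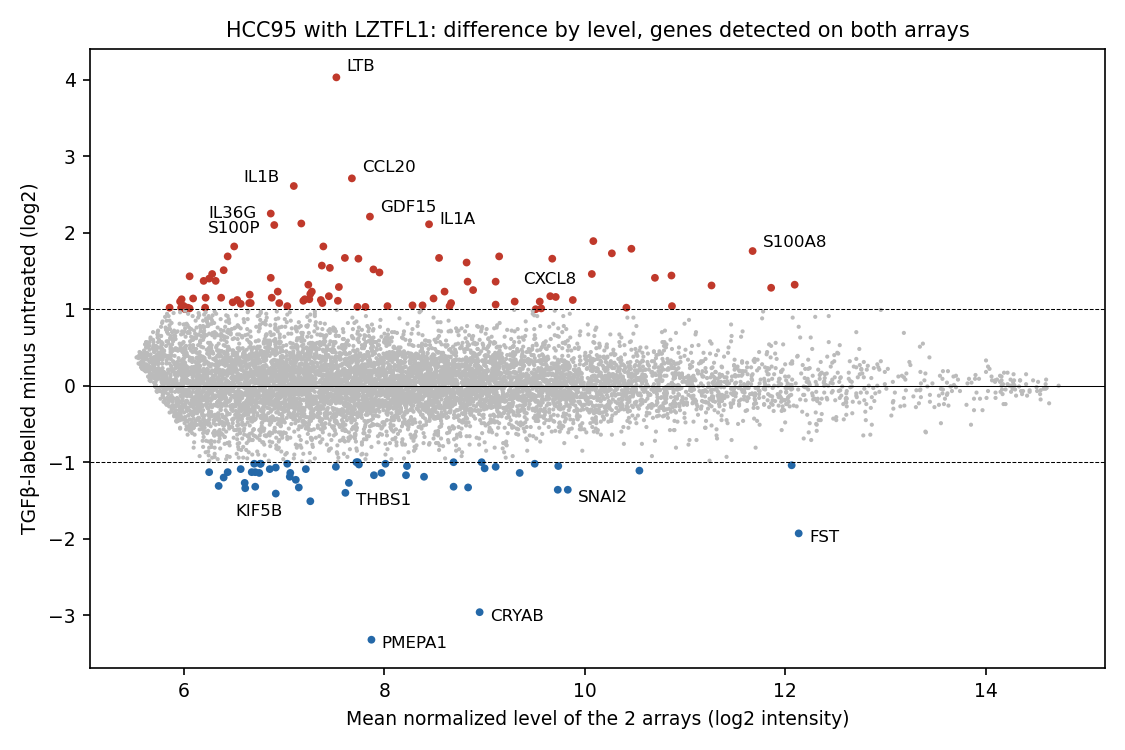
Each point is 1 of 8861 genes detected on both arrays, at its mean log2 level (x axis) and its difference, TGFβ-labelled minus untreated, in log2 (y axis). Red points are higher by 2-fold or more (94 genes), blue points lower by 2-fold or more (52 genes), and dashed lines mark a difference of 1. LTB (4.03) and PMEPA1 (-3.32) lie farthest from 0.

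Where a gene had a second probe detected on both arrays, the probes gave a measure of technical disagreement. Over 2003 such genes the spread between probes of 1 gene was 0.265, and their differences correlated with r = 0.551 across genes, which are not independent replicates. Of 26 such genes past 2-fold on the main probe, the second probe went the same way for 22 and was past 2-fold as well for 11. The 4 that disagreed in direction were ALG13 (-1.32 against 0.79), PNKD (1.20 against -0.17), PTP4A3 (1.15 against -0.01) and TSNAX (-1.05 against 0.43). SNX5 (-1.08 against -0.04) and LBH (-1.06 against -0.02) had a second probe near 0. These 6 genes were picked out for this disagreement after their values were seen.

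The interleukin and cytokine list held the highest genes as a group. Of 27 members with a listed probe, 11 were measured and the others were detected on neither array. Of the 11 measured members, 6 were at least 2-fold higher and 0 lower, and the list median was 1.35, against 0.00 over all genes. The value at that median is IL1RN's, a bound, since IL1RN was detected only on the TGFβ-labelled array. Relative to all genes the list median was 0.91 over members detected on both arrays, 0.88 at an offset of 50, 0.57 when no background was corrected and 0.49 at a detection p under 0.05. IL1B, the secreted form of interleukin 1 made through the inflammasome, read 5.79 untreated and 8.40 with the TGFβ label, a 6.11-fold difference. IL36G, an interleukin 1 relative of stressed epithelia, read 5.74 and 7.99, a difference of 2.25. IL1A, the alarmin of the family, went from 7.39 to 9.50. All 3 differed by more than 4-fold.

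The antagonist of the family was higher as well: IL1RN, the interleukin 1 receptor antagonist, was detected only on the TGFβ-labelled array (6.69) and was at least 2.55-fold higher. IL6, a cytokine that signals through STAT3, read 8.15 and 9.51. GDF15, a distant member of the TGFβ superfamily made under cell stress, read 6.75 and 8.96, a 4.64-fold difference. The 5 members that did not pass 2-fold were TNFSF15 (0.49), IL18 (0.35), IL1RAP (-0.08, with a second probe at 0.86), TNFSF10 (-0.16) and IL6ST (-0.58). Each array reads RNA of a whole culture, so fewer cells that express a gene and less RNA per cell cannot be told apart.

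Of 11 measured chemokines, 4 were at least 2-fold higher and 0 lower. CCL20 (ILMN_1657234), which draws CCR6-bearing dendritic and T cells, read 6.32 untreated and 9.03 with the TGFβ label, a 6.54-fold difference. CXCL8, the neutrophil chemokine interleukin 8, read 8.84 and 10.51. Its second probe differed by 0.85, which does not reach 2-fold. CCL26, an eosinophil chemokine, read 7.13 and 8.65, and CCL2, which draws monocytes, was detected only on the TGFβ-labelled array, at least 3.14-fold higher. CXCL14, a chemokine of resting epithelia, went the other way, from 8.46 to 7.56. Since 4 members detected only on the untreated array, among them CXCL1 and CXCL3, have bounds of 0.00, the list median was 0.00, and over the members detected on both arrays it was 0.99 above that of all genes.

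The gene with the largest difference of all was LTB (ILMN_2376205), which encodes lymphotoxin beta, a membrane cytokine of the tumour necrosis factor family and an NF-κB target. It read 5.50 untreated, just above the lowest detected level of that array, and 9.54 with the TGFβ label, a 16.4-fold difference. A second LTB probe was detected only on the TGFβ-labelled array and gave a bound of 1.44. Among 23 measured NF-κB feedback and target genes, LTB and TNFAIP2 (5.47 and 6.52) were at least 2-fold higher and 0 were lower; 17 lay above 0 and 4 below, with a median of 0.48 (0.27 when no background was corrected). The inhibitor NFKBIA, which holds NF-κB in the cytoplasm, read 11.63 and 12.52, and the ubiquitin-editing inhibitor TNFAIP3 5.69 and 6.34. The atypical nuclear members BCL3 and NFKBIZ differed by 0.72 and 0.71, and RELB by 0.58. The subunits NFKB1 (-0.48) and RELA (-0.42) lay on the other side. The subunits REL (0.67) and NFKB2 (0.25, with a second probe at 1.11) lay above 0. IKBKE, a kinase of the family that activates NF-κB, belongs to no list and was picked from the 12 highest bounds. It was detected only on the TGFβ-labelled array and was at least 2.27-fold higher.

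Promoters of 3 of these genes are shown because their genes were among the cytokines past 2-fold and each holds a match to the κB consensus, the motif bound by NF-κB dimers. The consensus was read as GGGRNNYYCC, with R for A or G, Y for C or T and N for any base. Sites of any other form were not searched for. They are RefSeq windows of GRCh38.p14 from 250 bases before to 50 bases after the start of the gene, written 5′ to 3′ on the strand of the gene, with matches on either strand in capitals. They lie at chr6:31582376-31582675 (minus strand), chr2:227813592-227813891 (plus strand) and chr7:22726950-22727249 (plus strand).
LTB: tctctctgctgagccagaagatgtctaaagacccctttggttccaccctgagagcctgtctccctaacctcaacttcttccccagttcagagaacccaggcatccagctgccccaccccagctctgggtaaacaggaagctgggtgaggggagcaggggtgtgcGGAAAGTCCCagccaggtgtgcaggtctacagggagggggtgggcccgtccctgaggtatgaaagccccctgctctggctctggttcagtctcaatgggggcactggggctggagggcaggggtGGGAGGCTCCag
CCL20: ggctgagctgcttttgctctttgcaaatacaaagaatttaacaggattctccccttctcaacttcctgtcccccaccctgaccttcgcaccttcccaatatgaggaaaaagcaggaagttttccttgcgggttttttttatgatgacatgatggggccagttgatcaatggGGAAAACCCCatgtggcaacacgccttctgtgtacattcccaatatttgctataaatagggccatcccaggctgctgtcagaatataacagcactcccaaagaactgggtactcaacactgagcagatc
IL6: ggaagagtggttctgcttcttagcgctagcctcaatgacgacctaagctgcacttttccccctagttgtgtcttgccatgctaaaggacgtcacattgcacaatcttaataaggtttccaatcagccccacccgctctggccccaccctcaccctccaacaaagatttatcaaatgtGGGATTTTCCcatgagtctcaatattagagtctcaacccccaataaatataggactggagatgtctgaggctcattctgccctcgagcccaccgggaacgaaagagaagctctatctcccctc
LTB holds 2 matches and CCL20 and IL6 hold 1 each. Of the other cytokine and chemokine genes past 2-fold with a listed promoter, GDF15 also held a match. The windows of IL1B, IL1A, IL36G, IL1RN, CXCL8 and CCL26 held none of this exact form, which does not show that they lack a κB site. Of 80 genes past 2-fold upward with a listed promoter, 15 (18.8%) held a match. The share was the same, 18.8%, among 48 genes past 2-fold downward, and 17.2% among 8236 measured genes. Over the whole table, 13.3% of 27305 genes held one in any of their windows, and 11.3% of the 35116 promoter windows did. A match is a description of the letters and not a bound site.

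S100 proteins are small calcium-binding proteins, several of which are secreted by inflamed epithelia. The list leaves out S100A4 (0.96), which is among the mesenchymal genes. Of 11 measured, 4 were at least 2-fold higher and 0 lower. S100P, which signals through the receptor RAGE, read 5.85 and 7.95, a 4.29-fold difference. S100A8 and S100A9, which pair to form calprotectin, read 10.79 and 12.56, and 11.22 and 12.50. S100A7, psoriasin, read 5.55 and 6.95. The other members of the list lay between -0.95 and 0.31, with S100A2, a gene of basal cells, lowest (9.08 and 8.13), so that the list median was 0.18.

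Of 8 measured acute phase and complement genes, 2 were at least 2-fold higher and 0 lower; 7 lay above 0 and 0 below, with a median of 0.58. The median was 0.33 at a detection p under 0.05 and with averaged probes, and 0.37 when no background was corrected. SERPINA3, which encodes the protease inhibitor antichymotrypsin, read 6.77 and 8.44. LCN2, the siderophore-binding lipocalin of mucosal defence, read 9.06 and 10.07. These 2 passed 2-fold, while the elastase inhibitors PI3 (0.91) and SLPI (0.83) did not. PIM1, a kinase gene induced by cytokines through STAT factors, read 7.71 untreated and 9.38 with the TGFβ label, a 3.17-fold difference.

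**Figure D2:**
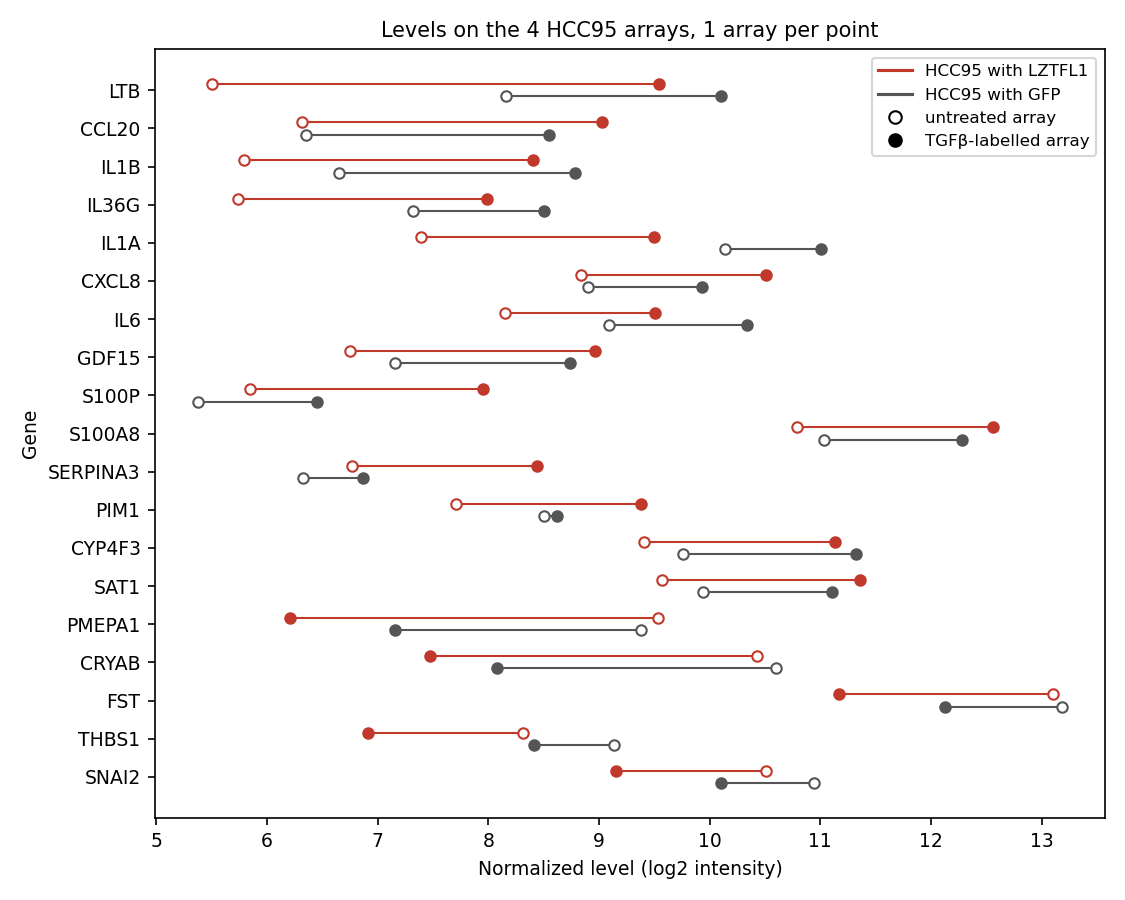
Normalized log2 levels (x axis) of 19 named genes (y axis) on the 4 HCC95 arrays, with 1 array per point: open circles are untreated, filled circles TGFβ-labelled, red the LZTFL1 vector and grey the GFP vector. In red, the 14 genes from LTB to SAT1 lie to the right with the TGFβ label and the 5 from PMEPA1 to SNAI2 lie to the left.

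Several other genes among the 30 highest belonged to no list, and those given here were picked after their values were seen. CDK5RAP2, a centrosome gene, read 9.14 and 11.03, with a second probe at 1.52. Another CDK5RAP2 probe, detected only on the untreated array, gave a bound of 0.00. The fatty acid hydroxylases CYP4F3 (9.41 and 11.13), CYP4F12 (6.91 and 8.57) and CYP4F2 (8.01 and 9.63) were each more than 3-fold higher. These 3 are closely related in sequence, so their probes may share signal. CES1, a carboxylesterase, read 6.48 and 8.30, and GSTA1, a glutathione transferase with close relatives, 7.21 and 8.69. SAT1, which acetylates polyamines, read 9.57 and 11.36. Of 7 measured genes of the aryl hydrocarbon receptor, 2 were at least 2-fold higher and 0 lower, with a median of 0.57. They were the cytochromes CYP1B1 (10.14 and 11.59) and CYP1A1, detected only on the TGFβ-labelled array and at least 2.40-fold higher.

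Of 19 measured genes of NRF2 and NADPH supply, 15 lay above 0 and 4 below, with a median of 0.33. ABCC3, an exporter of conjugates, passed 2-fold (9.90 and 10.93). AKR1B10, an aldo-keto reductase, differed by 0.99, PGD of the pentose phosphate pathway by 0.90 and TXNRD1, thioredoxin reductase, by 0.80. A second TXNRD1 probe differed by only 0.10. A second GCLM probe differed by 1.26, against 0.27 on the main probe. For AKR1C2 the main probe differed by 0.22 and its other probes by 1.49, 0.63 and 0.03. SLC7A11, the cystine transporter of the same list, was at least 2.37-fold lower (6.93 untreated, not detected on the TGFβ-labelled array). Of 11 metallothioneins and zinc transporters, MT1X (11.43 and 12.76) and MT2A (9.07 and 10.24) were at least 2-fold higher and the transporter SLC39A7 (7.45 and 6.38) lower, with a median of 0.03. The second probe of SLC39A7, not detected on the TGFβ-labelled array, gave a bound of only -0.09.

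Inhibitors of the TGFβ pathway included the lowest gene of all. PMEPA1 (ILMN_1734276), a membrane protein that sequesters receptor SMADs and is a well-known TGFβ target, read 9.53 untreated and 6.21 with the TGFβ label, a 9.98-fold lower level. Its second probe differed by -2.56. FST, follistatin, which binds and blocks activins, read 13.10 and 11.17, with a second probe at -2.51. Of 13 measured feedback inhibitors, these 2 were at least 2-fold lower and 0 higher; 9 lay below 0 and 3 above, with a median of -0.21, which was -0.09 when no background was corrected and -0.14 at an offset of 50. The inhibitory SMAD7 read 7.35 and 6.54 (a second probe, detected only on the untreated array, gave a bound of -0.08), the activin antagonist FSTL3 7.11 and 6.40, and the SMAD repressor SKIL was detected only on the untreated array, at least 1.62-fold lower. BAMBI, a decoy receptor, differed by 0.48.

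Of 12 measured ligands, receptors and SMADs, 1 was at least 2-fold lower and 0 higher; 6 lay above 0, 4 below and 2 at 0, with a median of 0.03. The lower one was TGFBR2, the type II receptor that binds the ligand, at 7.24 and 6.11, with a second probe at -0.54. The type I receptor ACVR1 read 9.21 and 8.34, and the BMP receptor BMPR2 was at least 1.72-fold lower. SMAD3, which carries the signal, read 8.99 and 9.97, while SMAD4 differed by -0.24. The ligands TGFB1, TGFB2 and TGFB3 and the receptor TGFBR1 were detected on neither array.

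Textbook target genes of TGFβ were lower more often than higher. Of 23 measured, 3 were at least 2-fold lower and 0 higher; 18 lay below 0 and 4 above, with a median of -0.35, the lowest of the 29 lists. THBS1, thrombospondin, which frees latent TGFβ, read 8.31 and 6.91. ITGA2, a collagen receptor subunit, read 9.19 and 8.19, and TPM1, a tropomyosin, 9.47 and 8.47. A second TPM1 probe read 9.27 and 8.27, and another, detected only on the TGFβ-labelled array, gave a bound of 0.39 in the other direction. ITGAV, a subunit of the integrins that activate latent TGFβ, differed by -0.92, and the growth factor modulators CCN1 and CCN2 by -0.74 and -0.12. TNC differed by -0.43 on its main probe and by -1.37 on a second probe. TPM2 (0.79) and VEGFA (0.42) were the highest members. FN1, IL11 and MMP2 were detected on neither array. Most of these genes are known to be raised by TGFβ, and most lay below 0 here. In the GFP pair, read by its own labels, 14 of 24 measured targets lay below 0 and 8 above, with a median of -0.19. Whether the labels of the 2 LZTFL1 arrays are as stated, and whether the treatment acted, could not be checked with these data. If the 2 labels were exchanged, every difference of the LZTFL1 pair would change sign and those of the GFP pair would not. Each value is therefore tied to the label of its array and not to a treatment. Of the ID genes, targets of BMP signals, ID1 read 8.80 and 9.79 and ID3 differed by -0.20, with a median of -0.07 over 3 measured genes.

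Genes of the epithelial to mesenchymal transition had list medians near 0. Of 13 measured mesenchymal genes, 1 was at least 2-fold lower and 0 higher, with a median of -0.08. SNAI2, a repressor of epithelial genes, read 10.51 and 9.15, and its second probe differed by -1.18. N-cadherin, CDH2, read 7.78 and 6.83 and cadherin CDH11 7.19 and 6.29, while S100A4 (0.96) and the ligand WNT5A (0.78) lay above 0. Vimentin, VIM, differed by -0.08. The factors SNAI1, ZEB1 and ZEB2 were detected on neither array.

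Of 24 measured epithelial genes, 1 was at least 2-fold higher and 0 lower, with a median of -0.01. It was CLDN1, a tight junction claudin, at 7.92 and 9.06. E-cadherin, CDH1, differed by -0.08, and the epithelial factor ELF3 read 7.36 and 8.27. Of 22 basal and squamous genes, 11 lay above 0 and 11 below, with a median of -0.01. The cornified envelope genes SPRR2D (1.12), SPRR3 (0.81) and SPRR1A (0.68) were the highest, and JUP (-0.59), KRT16 (-0.56) and the desmosome cadherin DSG3 (-0.51) the lowest. A second KRT16 probe went the other way, from 8.40 to 9.01. CLDN11 (8.30 and 9.99) and the sodium channel subunit SCNN1A (9.34 and 10.80), which belong to no list, were each more than 2-fold higher.

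Among the genes lower with the TGFβ label, CRYAB, a small heat shock protein that holds unfolded proteins, read 10.43 and 7.47, a 7.76-fold difference. It stood alone in its list: of 15 measured heat shock and chaperone genes, 1 was at least 2-fold lower and 0 higher, with a median of -0.08, and its relative HSPB1 differed by -0.51. LYPD1 was at least 3.49-fold lower, although its second probe gave a bound of only -0.18. GPC4, a glypican (10.41 and 9.05), EFNB2, an ephrin (7.28 and 5.94), RDH16, a retinol dehydrogenase (9.50 and 8.17), and RB1, the retinoblastoma gene (7.81 and 6.48), were also more than 2-fold lower. Other genes more than 2-fold lower included the motor gene KIF5B (8.02 and 6.50), the glycosyltransferase B3GNT2 (7.62 and 6.21), the nuclear lamina gene TMPO (8.28 and 7.01, with a bound of 0.00 from a second probe), the transcription factors SOX21 (-1.32), BCL11B (-1.23) and FOXQ1 (-1.19), and the small RNAs SCARNA18 (-1.17) and SNORA27 (-1.27).

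**Figure D3:**
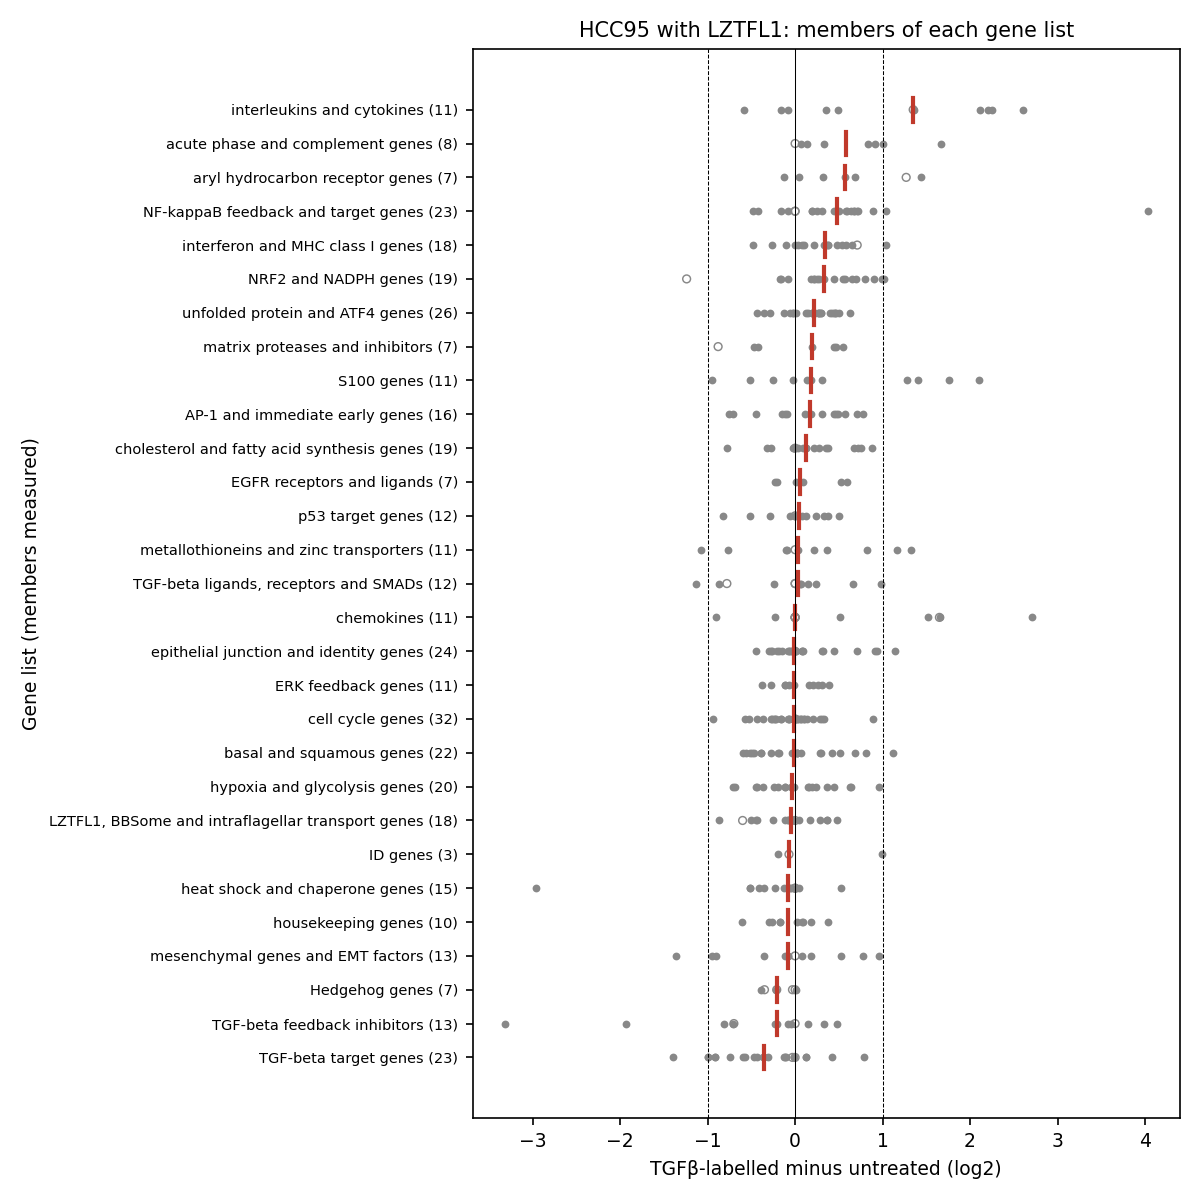
Differences, TGFβ-labelled minus untreated in log2 (x axis), of the members of 29 gene lists (y axis, with the number measured in brackets). Filled points were detected on both arrays, open points on 1 array and are bounds, red bars are list medians and dashed lines mark 2-fold. Medians run from -0.35 for TGFβ targets to 1.35 for interleukins and cytokines, the latter between 0.49 and 0.91 under the 4 settings named in the text.

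The other lists held few or no genes past 2-fold. Unfolded protein and ATF4 genes had 0 of 26 past 2-fold, but 19 lay above 0 and 7 below, with a median of 0.22, led by DDIT4 (0.63) and STC2 (0.50). Interferon and MHC class I genes had 15 of 18 above 0 and a median of 0.34, with IFITM1, a membrane restriction factor, past 2-fold (10.35 and 11.39). Of 16 AP-1 and immediate early genes 0 passed, with a median of 0.17 and a range from KLF10 (-0.76) to MAFF (0.78). Of 19 cholesterol and fatty acid synthesis genes 0 passed, with a median of 0.13 and HMGCS1 highest (0.88). Matrix proteases and inhibitors had 0 of 7 past 2-fold (median 0.19), with a bound of -0.88 for MMP10.

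Medians within 0.1 of the all-gene median of 0.00 were found for 32 cell cycle genes (-0.01, from RRM2 at -0.94 to CCND3 at 0.89), 20 hypoxia and glycolysis genes (-0.03), 12 p53 targets (0.04), 11 ERK feedback genes (-0.01), 7 genes of EGFR and its ligands (0.06) and 10 housekeeping genes (-0.08). None of these had a member past 2-fold on its main probe. The same was true of 18 genes of the BBSome and intraflagellar transport (-0.05, with TTC8 lowest at -0.87) and of 7 Hedgehog genes, whose median was -0.21. Second probes did pass 2-fold for UBE2C of the cell cycle list (-1.07), PHLDA1 of the ERK feedback list (1.10) and YWHAZ of the housekeeping list (-1.14). On their main probes these genes differed by 0.07, -0.12 and -0.17. Genes whose symbols begin with RPL or RPS had 0 of 96 past 2-fold (0.01); besides ribosomal protein genes these include S6 kinase genes and pseudogenes. Histone genes had 0 of 20 past 2-fold (0.00) and small nuclear RNAs 0 of 10 (-0.03). Of 103 small nucleolar and Cajal body RNAs, the same SCARNA18 and SNORA27 were the 2 at least 2-fold lower, and 0 were higher (0.00).

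Of 30 measured microRNA loci, host genes included, 2 passed 2-fold, both higher, and the median was 0.00. The probe annotated to MIR21, a locus raised in many carcinomas, read 5.51 and 6.51, and that of MIR205, a locus of squamous and basal cells, 9.01 and 10.01. Both lie on the 2-fold line. The probes read transcripts of the loci, so they do not measure the mature forms. The mature sequences of both, from RefSeq (GRCh38.p14, chr17:59841273-59841294 and chr1:209432166-209432187, plus strand), are given to identify them, with the seed (bases 2 to 8) in capitals; the seeds differ.
hsa-miR-21-5p: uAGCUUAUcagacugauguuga
hsa-miR-205-5p: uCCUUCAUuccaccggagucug

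Of the markers of other cell types, some were detected. Of 5 endothelial markers, 1 was detected, VWF, which encodes von Willebrand factor and was 3.52-fold higher with the TGFβ label (5.59 and 7.41); PECAM1, CDH5, KDR and TEK were detected on neither array. Of 5 leukocyte markers with a listed probe, only the lysosomal gene CD68, which epithelial cells also express, was detected (9.13 and 10.29), and PTPRC was not. Of 9 stromal markers 4 were detected. THY1 read 8.90 and 9.41, and ACTA2 read 5.41 and 5.98. COL1A1 and COL1A2 were detected only on the untreated array and gave bounds of -0.03 and 0.00. COL3A1, PDGFRA, PDGFRB, LUM and DCN were detected on neither array. The neuroendocrine gene CHGB was detected and differed by 0.36, and CHGA, SYP and INSM1 were not. What part VWF, CD68, THY1 or ACTA2 signal has in the differences of other genes was not tested.

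The GFP pair of HCC95 has the same contrast on 2 other arrays. In it 63 of 10051 genes (0.627%) passed 2-fold upward and 24 (0.239%) downward. The 108 genes higher in the LZTFL1 pair had a median difference of 0.81 in the GFP pair. There 101 lay above 0, 3 below and 4 at 0, and 42 were past 2-fold. These 42 are 38.9% of the LZTFL1 list and 66.7% of the GFP list. The 57 lower genes had a median of -0.51 in the GFP pair, with 47 below 0 and 10 above, and 7 were past 2-fold, 12.3% of the LZTFL1 list and 29.2% of the GFP list. No gene was past 2-fold in opposite directions. Genes were chosen here by their size in the LZTFL1 pair, so a larger value there is no result. Chosen instead by the GFP pair, the 59 higher genes measured in both had medians of 1.19 there and 1.31 in the LZTFL1 pair, and the 24 lower ones -1.10 and -0.69.

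**Figure D4:**
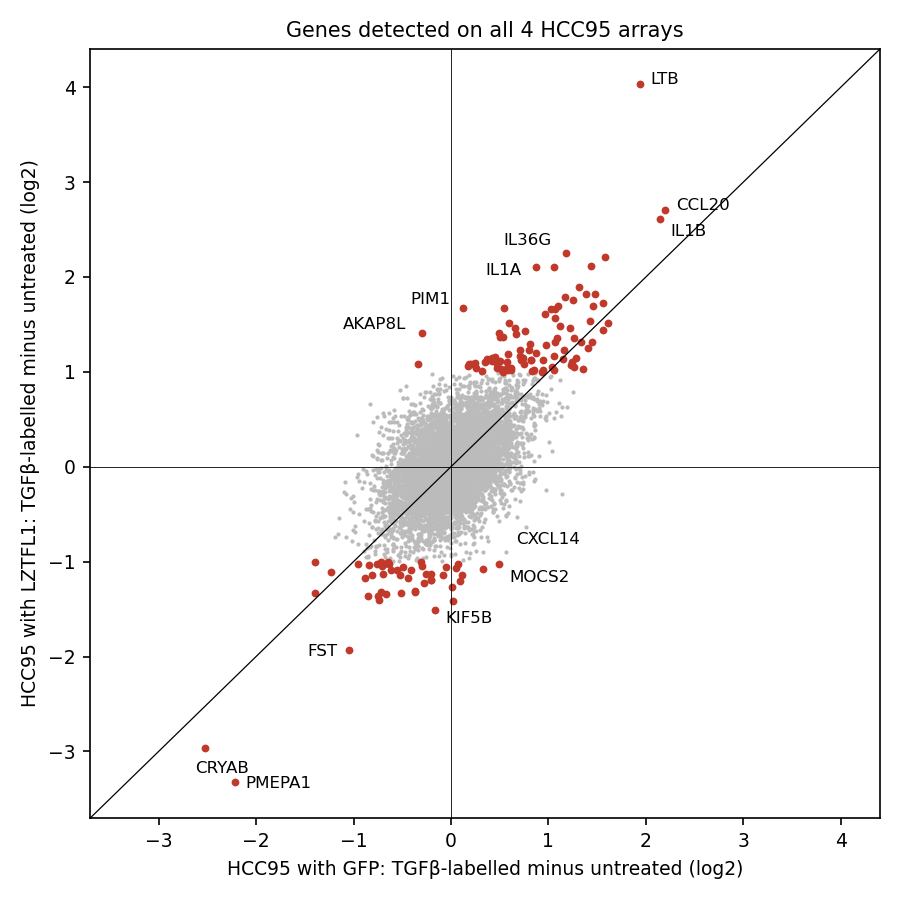
Differences, TGFβ-labelled minus untreated in log2, in the GFP pair (x axis) and the LZTFL1 pair (y axis) for 8487 genes detected on all 4 arrays; the diagonal marks equal differences. The 141 red genes are past 2-fold in the LZTFL1 pair. LTB lies farthest above the diagonal (4.03 against 1.94), and CCL20, IL1B, CRYAB and PMEPA1 are far from 0 in both pairs.

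The widest gap between the pairs was that of LTB, 2.09 on its main probe. It lay mainly at the untreated arrays, which read 5.50 with LZTFL1 and 8.16 with GFP, while the TGFβ-labelled arrays read 9.54 and 10.10. The same order held for IL36G (5.74 and 7.32 untreated, 7.99 and 8.50 with the TGFβ label) and for IL1A (7.39 and 10.14 untreated, 9.50 and 11.01 with the TGFβ label). The second LTB probe, detected only on the TGFβ-labelled array of each pair, gave bounds of 1.44 with LZTFL1 and 1.99 with GFP. From that probe the pair with the larger LTB difference cannot be told.

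For PIM1 both ends differed: untreated it read 7.71 with LZTFL1 and 8.50 with GFP, and TGFβ-labelled 9.38 and 8.62, a gap of 1.55. For SERPINA3 the gap of 1.13 lay mainly at the TGFβ-labelled end (8.44 and 6.87). AKAP8L was higher with the TGFβ label in the LZTFL1 pair (6.16 and 7.57) and lower in the GFP pair (6.66 and 6.35). CYP1A1 differed by at least 1.27 with LZTFL1 and by 2.26 with GFP, and since the first is a bound the pair with the larger difference cannot be told.

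Among genes lower with the TGFβ label, PMEPA1 read 9.53 and 6.21 with LZTFL1 and 9.38 and 7.16 with GFP, a gap of -1.10 that lay mainly at the TGFβ-labelled end. Similarly FST, with a gap of -0.87, had untreated levels of 13.10 and 13.18 and TGFβ-labelled levels of 11.17 and 12.13. CRYAB and RDH16 had gaps of only -0.43 and 0.07. KIF5B, B3GNT2, TMPO and RNFT1 were more than 2-fold lower in the LZTFL1 pair and differed in the GFP pair by -0.16, 0.02, 0.01 and 0.09. MOCS2 (-1.02 against 0.49), a gene of molybdenum cofactor synthesis, and CXCL14 (-0.90 against 0.56) lay on opposite sides of 0. With 4 arrays in 4 groups, the difference between the pairs leaves no residual degree of freedom, so it was not tested and none of these gaps is set against an error.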

How the data were processed

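RNA of 6 cultures was measured on Illumina HumanHT-12 v4 beadchips, 1 array for each group, per the labels. The authors deposited non-normalized signal intensities of the probes and, for every intensity, a detection p-value. A second deposited table holds processed intensities, also linear. GenomeStudio 2011.1 is named in the submitters' processing notes without settings. The deposited p-values are multiples of 1 in 770. Each processed column had a median of 13.1 and the ranks of its own array's signals (rank correlation 1); its normalization is unknown.

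All 6 arrays were processed together with limma 3.58.1 in R 4.3.3: neqc corrected the background from the detection p-values, added an offset of 16, quantile-normalized and took log2. The offset understates folds of dim genes. The platform annotation lists a single symbol for 30113 of 47323 probes, and 30074 of these were matched by gene identifier to the GRCh38.p14 RefSeq gene table. For each gene the probe brightest on average across the 6 arrays was used. An undetected value was raised to the lowest detected value of its array; a difference whose sign this turned was set to 0 (643 genes have a difference of 0 for a bound). The computation was tested on simulated data.

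No test was run, because each side has 1 array and the number of arrays limits the precision. Nothing says cultures were replicated. The named genes are a selection from the 30 highest and 25 lowest among those detected on both arrays, the 12 highest and 12 lowest bounds, members of the gene lists, and the 10 genes with the widest gap between the pairs each way. The lists and this rule were chosen with earlier results of these data known. Alternatives were median scaling, no background correction, an offset of 50, the processed values, other detection rules, averaged probes, normalizing only the 4 HCC95 arrays, and a 1.5-fold threshold.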

Additional observations from a re-analysis of the deposited data

Results flagged for a closer look

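Probes without 1 listed gene symbol were not used above. Of 3632 such probes detected on at least 1 of the 2 LZTFL1 arrays, 24 were at least 2-fold higher with the TGFβ label. Another 19 were at least 2-fold lower. Among 10137 named genes the counts were 108 and 57, so these probes did not pass 2-fold more often than named genes. The highest (ILMN_1652711), a bound, differed by at least 1.72, and by 1.06 in the GFP pair. The lowest (ILMN_1744381) differed by -1.77, and by -1.34 in the GFP pair. ILMN_1800160 (1.62) and ILMN_1673880 (-1.66) differed in the GFP pair by only 0.35 and -0.19.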

How the results depend on the processing

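No paired analysis was possible because each group has 1 array. The counts of 108 higher and 57 lower genes became 72 and 110 with median scaling, 37 and 10 when no background was corrected, 50 and 23 when the offset was 50, and 639 and 473 at 1.5-fold. They stayed within 1.5 times under the other alternatives run: 106 and 57 with the processed values, 94 and 52 with detection on both arrays, 117 and 85 at a detection p under 0.05, 98 and 46 with averaged probes, and 108 and 54 with the 4 HCC95 arrays alone. Median scaling moved the median of genes detected on both arrays from 0.02 to -0.09. Of 92 genes that belong to the named set or a list and were past 2-fold, all 92 kept their direction under each alternative that measured them; 84 stayed past 2-fold with median scaling, 39 when no background was corrected and 59 when the offset was 50. Relative to all genes, the cytokine list median of 1.35 was 0.57 with uncorrected background, 0.88 with the offset at 50, 0.91 with detection on both arrays and 0.49 at a detection p under 0.05. With detection on both arrays the chemokine list moved to 0.99 and the ID genes turned to 0.38. Medians near 0 changed side for the basal and ERK feedback lists with averaged probes, for RPL and RPS genes with detection on both arrays and for small nuclear RNAs at a detection p under 0.05. Leaving the background uncorrected or raising the offset compresses dim values by construction; other causes were not tested. Signal near background limits every bound, and the 1065 genes detected only on the untreated array have no measured difference.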
